A study of Homo sapiens with 12 samples.

Results

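The 34 genes described here carry out fatty acid synthesis, elongation, desaturation and activation, with the steps that build triglyceride and 3 genes of their control. They were chosen by symbol from what is known of the pathway, with no cut on measured values, but with earlier results of these data known. All 34 were found among the 60670 genes of the count table. RNA was measured in MDA-MB-453, an established human breast cancer cell line. Cells grew for 72 h in DMEM (high glucose, 10% FBS) and then received, for 6 h, either 0.001% ethanol (vehicle, 6 libraries) or 10 nM dihydrotestosterone (DHT, a potent androgen; 6 libraries). Serum was present in both groups. The libraries stand for consecutive passages of a single line, and other lines were not analysed here. By its title the series is about AP-2β, a transcription factor, in the mammary hormone-sensing lineage. The comparison made here is which of these lipid genes differed in RNA level after androgen.

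Fatty acid synthesis starts when citrate or acetate is turned into acetyl-CoA in the cytosol. Acetyl-CoA carboxylase turns this into malonyl-CoA, and fatty acid synthase joins such units into palmitate. Elongases and desaturases of the endoplasmic reticulum lengthen the chain and add double bonds. Acyl-CoA ligases attach coenzyme A to free fatty acids, which lets them enter membranes, triglyceride or oxidation. In prostate cells the pathway is known to respond to androgens.

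Counts per library ran from 4345939 (vehicle replicate 6) to 25678380 (DHT replicate 2), and levels are given as CPM, counts scaled to library size with TMM factors. Both replicate 2 libraries lay away from the rest along principal component 1 (51.1% of variance). Component 2 (15.7%) ran from -50.0 to -2.45 over the vehicle libraries and from 12.3 to 23.4 over the DHT libraries, so it parted the groups. Vehicle replicate 5 was at its far vehicle end, -50.0, and had the highest mitochondrial share, 8.07% against a lowest share of 3.03%. The keratins, EPCAM and ERBB2 of a luminal line were present. ESR1 and PGR were at most 0.639 CPM in any library. Of 7 adipocyte markers, 6 were too low to test and 0 passed; the summed level was 3.83 to 7.92 CPM in vehicle and 2.83 to 6.59 CPM after DHT, most of it from CFD. Of 4 leukocyte markers 0 could be tested, and CD3E was at 0 in every library. Summed basal myoepithelial markers were 11.5 to 18.3 CPM in vehicle and 3.47 to 4.48 CPM after DHT (2 of 6 tested, 1 lowered). Most of that drop came from the lowered gene alone. Summed fibroblast markers were 76.0 to 110 and 59.5 to 75.4 CPM (3 of 6 tested, 0 passing), most of it from COL1A1. The part of these marker sets in the results below was not tested. In RNA from whole cultures, fewer cells of a type and less RNA per cell cannot be told apart.

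Over all 16355 genes tested, 320 rose (1.96%) and 144 fell (0.88%) at an adjusted p under 0.05 in edgeR's quasi-likelihood test, and the median log2 fold change was -0.046. Of the 34 members 30 had enough counts to test. Of these, 3 rose (ACACA, ACSL1 and ACSL4), 0 fell and 27 did not pass. At an unadjusted p under 0.05, 4 were higher, ELOVL5 being the fourth, and 0 were lower, where 6.59% of all genes tested were higher and 5.41% lower. DESeq2 also gave 0 lowered members. The members' log2 fold changes ran from -0.28 (TECR) to 1.22 (ACSL4) with a median of 0.10. Of them 20 were positive and 10 negative, where 41.8% of all genes tested were positive. For 4 members every DHT library lay above every vehicle library, where 2.28% of all genes tested did so, and 0 members lay wholly below, where 0.991% did. The number raised was 1 when vehicle replicate 3 or either of DHT replicates 3 and 6 was left out. In each of those fits fewer genes were called over the whole table as well. Leaving out vehicle replicate 2 gave 5, and so did the fit without both replicate 2 libraries, where FASN and ELOVL5 joined and 3.7% of genes rose and 1.9% fell. Genes called over the whole table numbered 464 with all libraries and from 278 to 1286 over the 21 alternatives run, so these counts did not move alone.

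**Figure D1:**
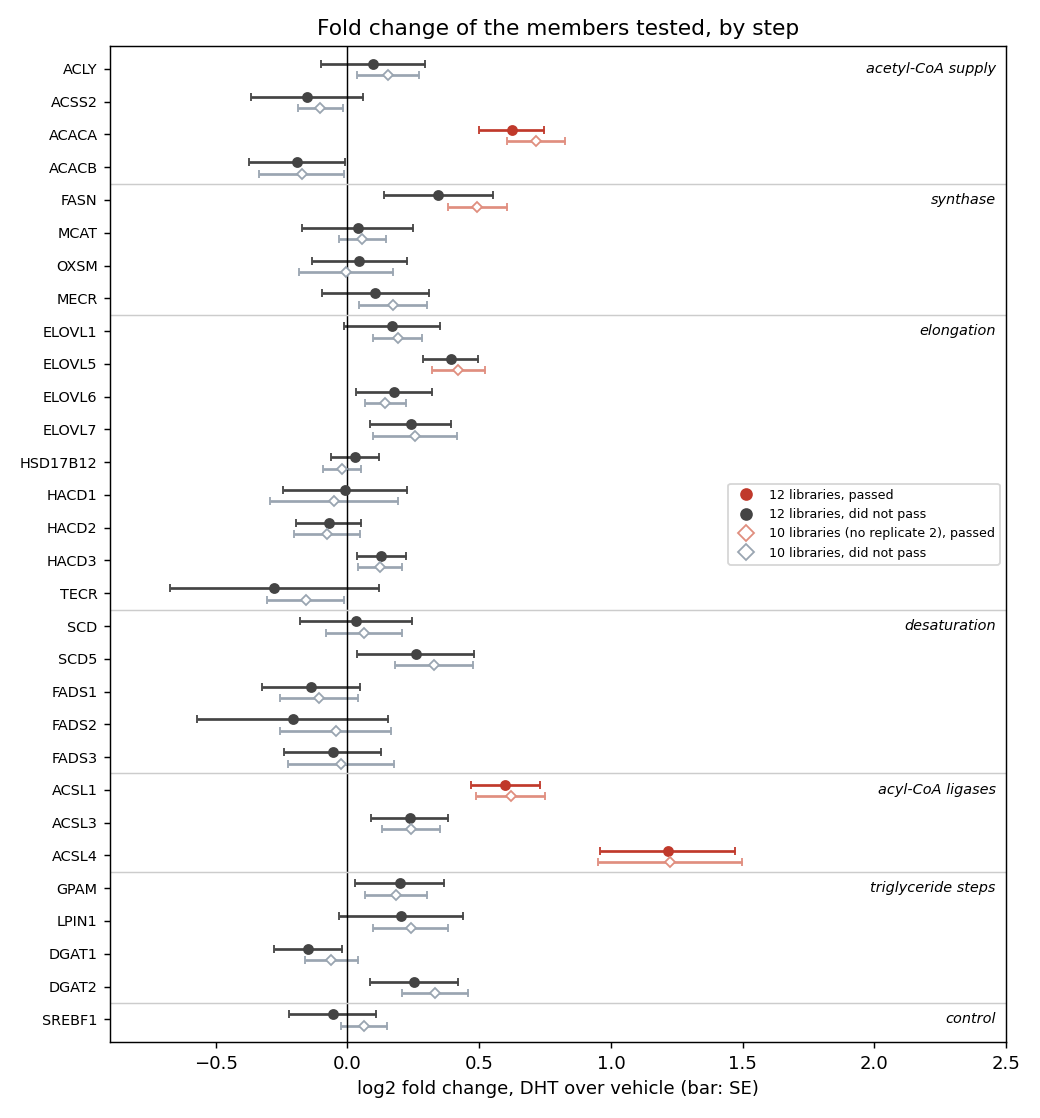
Log2 fold change, DHT over vehicle (x axis), of the 30 members tested, grouped by step, with bars for the standard error and a second mark for the fit without both replicate 2 libraries. ACACA, ACSL1 and ACSL4 are the members past the threshold, and the ligases hold the step with the highest median, 0.60.

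RefSeq promoter windows (250 bases before to 50 after an annotated start, GRCh38.p14) were found for 29 of the 34 members, 46 windows in all. Windows are printed for genes that rose or whose groups did not overlap, as examples of the matches they hold, and they were picked after the matches were seen. Both strands were searched for the androgen response hexamer (AGAACA), the full androgen response element (the hexamer, 3 free bases and its inverted repeat TGTTCT), the sterol regulatory element (TCACNCCAC), an E-box (CACGTG) and the CCAAT box (CCAAT). A full element would also count as hexamers. Capitals mark the matches, and each sequence reads 5′ to 3′ on the gene's strand, which is minus for all 4.
ACACA, chr17:37299718-37300017: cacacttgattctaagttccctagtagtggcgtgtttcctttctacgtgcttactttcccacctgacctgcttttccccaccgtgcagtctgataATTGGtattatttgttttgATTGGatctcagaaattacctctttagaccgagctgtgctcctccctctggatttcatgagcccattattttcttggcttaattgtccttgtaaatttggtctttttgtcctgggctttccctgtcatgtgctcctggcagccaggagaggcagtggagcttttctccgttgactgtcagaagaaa
ACSL1, chr4:184805504-184805803: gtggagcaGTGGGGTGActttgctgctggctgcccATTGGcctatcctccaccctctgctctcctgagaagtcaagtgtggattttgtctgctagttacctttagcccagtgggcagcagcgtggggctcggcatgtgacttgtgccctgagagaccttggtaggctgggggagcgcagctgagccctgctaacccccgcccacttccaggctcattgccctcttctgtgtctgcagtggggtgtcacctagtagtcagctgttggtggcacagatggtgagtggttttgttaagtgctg
ACSL1, chr4:184812202-184812501: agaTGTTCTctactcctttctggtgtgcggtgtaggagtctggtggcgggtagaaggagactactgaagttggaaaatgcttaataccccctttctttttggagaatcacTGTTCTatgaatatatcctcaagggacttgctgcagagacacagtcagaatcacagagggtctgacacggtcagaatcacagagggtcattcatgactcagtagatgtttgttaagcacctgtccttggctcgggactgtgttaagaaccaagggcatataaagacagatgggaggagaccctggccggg
ELOVL5, chr6:53348901-53349200: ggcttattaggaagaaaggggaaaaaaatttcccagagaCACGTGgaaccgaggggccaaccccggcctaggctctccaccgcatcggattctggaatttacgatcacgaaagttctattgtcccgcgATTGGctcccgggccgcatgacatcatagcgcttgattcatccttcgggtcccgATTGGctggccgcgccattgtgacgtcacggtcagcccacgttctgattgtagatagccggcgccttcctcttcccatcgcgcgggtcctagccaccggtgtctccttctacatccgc

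The printed ACACA window, 1 of 3 for that gene, holds reverse CCAAT boxes 155 and 136 bases before the start. Of the ACACA windows not printed, 1 holds a reverse CCAAT box at 226 bases. ACSL1 has 5 windows. The first one printed holds a reverse sterol regulatory element 242 bases before the start and a reverse CCAAT box at 215 bases. The second one printed holds reverse androgen response hexamers at 247 and 140 bases, and the ACSL1 windows not printed hold no match. In the ELOVL5 window an E-box lies 211 bases before the start and reverse CCAAT boxes at 122 and 68 bases. Each match is a description of letters, not a mapped site. Androgen response hexamers were in 2 of the 46 member windows (4.3%, against 14.8% of all 35116 windows) and the full element in 0 (1 window in all had it). The sterol element was in 1 member window (2.2%, against 1.1%), the E-box in 1 (2.2%, against 7.3%) and the CCAAT box in 19, of 16 genes (41.3%, against 34.6%). The single ACSL4 window had none of these.

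Acetyl-CoA supply and carboxylation held 1 raised member among 4 tested, with a median log2 fold change of -0.028. ACACA (ENSG00000278540, chromosome 17, 37084992 to 37406836 on GRCh38), the cytosolic acetyl-CoA carboxylase that commits carbon to fatty acids, had a lowest, median and highest level of 98.8, 127 and 154 CPM in vehicle libraries. In DHT libraries these were 176, 194 and 208 CPM. Every DHT library was above every vehicle library, and the closest pair was the replicate 2 libraries. The mean went from 125 ± 22.2 to 192 ± 11.5 CPM (SD, n = 6), a log2 fold change of 0.62 (SE 0.12, 95% interval 0.36 to 0.89, edgeR adjusted p = 0.0126). It passed under all 21 alternatives run, with adjusted p between 0.00011 and 0.0403. The authors' deposited table gives 0.57 (adjusted p = 0.0086 there).

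ACACB makes malonyl-CoA at the mitochondrial surface, where it restrains fatty acid import for oxidation. It was at 6.81, 9.59 and 10.7 CPM in vehicle and 5.59, 8.06 and 9.54 CPM after DHT (lowest, median, highest). The groups overlapped, and the log2 fold change was -0.19 (SE 0.18, adjusted p = 0.825). ACACA made up 93.8 ± 1.54% of the summed CPM per kilobase of both carboxylases in vehicle and 96.5 ± 0.787% in DHT libraries (SD, n = 6). These shares overlapped, with a highest vehicle value of 96.2% and a lowest DHT value of 95.5%.

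ACLY, which splits citrate into acetyl-CoA, ran from 228 to 551 CPM in vehicle (median 313) and from 323 to 523 CPM after DHT (median 345). The highest library of each group was replicate 2, and the log2 fold change was 0.098 (SE 0.20, adjusted p = 0.937). ACSS2, which makes acetyl-CoA from acetate, did not pass either (-0.15 on the log2 scale, SE 0.21, adjusted p = 0.900). ME1, a cytosolic malic enzyme that yields NADPH, had 1 count over the vehicle and 1 over the DHT libraries and was not tested. Per length ACLY was the more abundant of the acetyl-CoA makers, at 66.4 ± 21.3 CPM per kilobase against 12.3 ± 4.36 for ACSS2 in vehicle libraries (SD, n = 6).

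Fatty acid synthase, FASN (ENSG00000169710, chromosome 17, 82078338 to 82098294), is a single large protein that carries every reaction of palmitate synthesis. Its lowest, median and highest levels were 877, 1135 and 2166 CPM in vehicle and 1383, 1571 and 2021 CPM after DHT. The groups overlapped through vehicle replicate 2, which was the highest of all 12. FASN did not pass (log2 fold change 0.35, SE 0.21, 95% interval -0.096 to 0.79, edgeR adjusted p = 0.609). Without both replicate 2 libraries the vehicle range was 877 to 1240 CPM and the DHT range 1383 to 1636 CPM, with no overlap. In that fit the mean was 1080 ± 145 CPM in vehicle and 1518 ± 114 CPM after DHT (SD, n = 5), a log2 fold change of 0.49 (SE 0.11, edgeR adjusted p = 0.0199). Without vehicle replicate 2 alone it was 0.57 (adjusted p = 0.0349). FASN passed in these 2 of 21 alternatives and not in the authors' deposited table, which gives 0.38 (adjusted p = 0.242 there).

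MCAT, OXSM and MECR belong to the separate mitochondrial pathway, in which each reaction has its own enzyme and which supplies the precursor of lipoic acid. None of these 3 passed, with log2 fold changes of 0.038, 0.046 and 0.10. MECR, the last reductase of that pathway, was at 17.9, 22.1 and 39.4 CPM in vehicle and 21.0, 25.2 and 37.4 CPM after DHT (lowest, median, highest; adjusted p = 0.933). For MCAT, replicate 2 was high in both groups, with 86.2 CPM (vehicle) and 86.0 CPM (DHT) against group medians of 46.4 and 48.1 CPM.

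**Figure D2:**
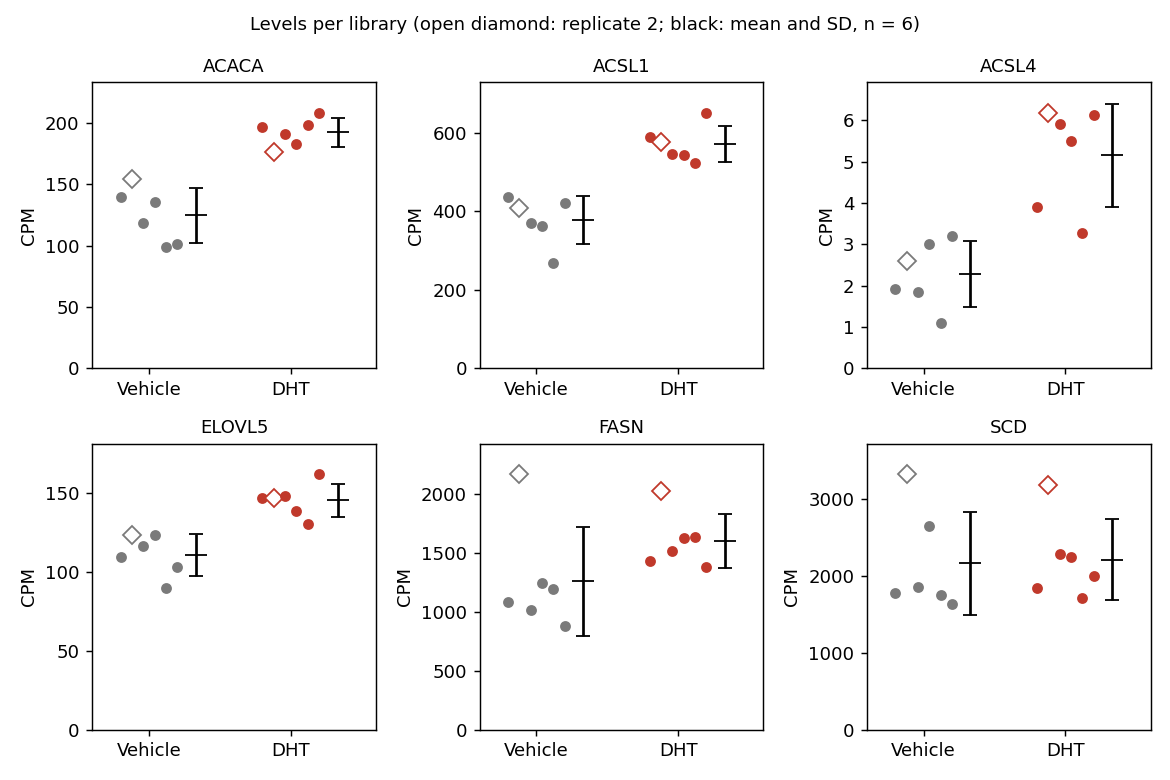
Level in CPM (y axis, from 0) of ACACA, ACSL1, ACSL4, ELOVL5, FASN and SCD in each library, vehicle in grey and DHT in red, with open diamonds for replicate 2 and black bars for the mean and SD (n = 6). The groups do not overlap for the first 4 genes, overlap for FASN through vehicle replicate 2 at 2166 CPM, and overlap broadly for SCD.

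Elongation held 0 members past the threshold among 9 tested (1 at an unadjusted p under 0.05 in edgeR), and the median log2 fold change was 0.13. ELOVL5 (ENSG00000012660, chromosome 6, 53267398 to 53349179), which lengthens polyunsaturated chains, came closest. Its lowest, median and highest levels were 89.5, 113 and 124 CPM in vehicle and 130, 147 and 162 CPM after DHT. Every DHT library was above every vehicle library. The log2 fold change of 0.39 (SE 0.10, 95% interval 0.17 to 0.62) missed the threshold in edgeR (adjusted p = 0.0672). It passed in 4 of 21 alternatives, among them the fits without both replicate 2 libraries (0.42, adjusted p = 0.0271), without vehicle replicate 2 alone (adjusted p = 0.0402) and with DESeq2 as the test (adjusted p = 0.00838). The authors' deposited table gives 0.35 (adjusted p = 0.463 there).

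ELOVL7, another elongase, was at 7.14, 11.4 and 12.1 CPM in vehicle and 10.6, 12.6 and 14.8 CPM after DHT (log2 fold change 0.24, adjusted p = 0.657). ELOVL1, which acts on saturated very long chains, and ELOVL6, which extends palmitate, had log2 fold changes of 0.17 and 0.18 and did not pass. Per kilobase, ELOVL1 made up 56.8% of the 4 elongases in vehicle and 54.1% in DHT libraries, and ELOVL5 31.0% and 34.2%. These shares overlapped between the groups. The enzymes that complete each round of elongation were also called neither up nor down. HSD17B12, the ketoacyl reductase, stayed between 104 and 112 CPM in vehicle and 97.9 and 130 CPM after DHT (log2 fold change 0.030). The dehydratases HACD1, HACD2 and HACD3 had log2 fold changes of -0.0085, -0.071 and 0.13. TECR, the closing reductase, had -0.28 with the widest error of all members tested (SE 0.40). Replicate 2 reached 410 CPM in the vehicle and 297 CPM in the DHT group, against group medians of 111 and 106 CPM.

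Desaturation showed 0 calls among 5 tested members in edgeR, also at an unadjusted p under 0.05, and the median log2 fold change was -0.056. SCD, which puts the first double bond into stearate and palmitate, was the most abundant member per length, at 412 ± 128 CPM per kilobase in vehicle libraries. Its lowest, median and highest levels were 1626, 1815 and 3316 CPM in vehicle and 1715, 2120 and 3179 CPM after DHT. The highest library of each group was replicate 2, and the groups overlapped nearly throughout. The log2 fold change of 0.032 (SE 0.21, adjusted p = 0.985) had a 95% interval of -0.43 to 0.49. SCD5, its less abundant relative, was at 9.98, 12.2 and 22.9 CPM in vehicle and 11.8, 15.7 and 23.7 CPM after DHT (log2 fold change 0.26, adjusted p = 0.800). SCD made up 99.2% of the pair per kilobase in vehicle and 99.1% in DHT libraries.

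FADS1 and FADS2 introduce double bonds nearer the carboxyl end of polyunsaturated fatty acids. FADS1 was at 27.0, 34.3 and 54.9 CPM in vehicle and 26.5, 33.3 and 46.1 CPM after DHT (log2 fold change -0.14, adjusted p = 0.899). FADS2 was at 16.6, 20.5 and 63.0 CPM in vehicle and 14.7, 20.1 and 43.6 CPM after DHT (log2 fold change -0.21, SE 0.36, adjusted p = 0.926). The groups overlapped for both genes. Their exons share 490 bases on opposite strands, and no source used here says whether counting used strand, so reads in that stretch cannot be told apart. FADS3 had a log2 fold change of -0.056.

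**Figure D3:**
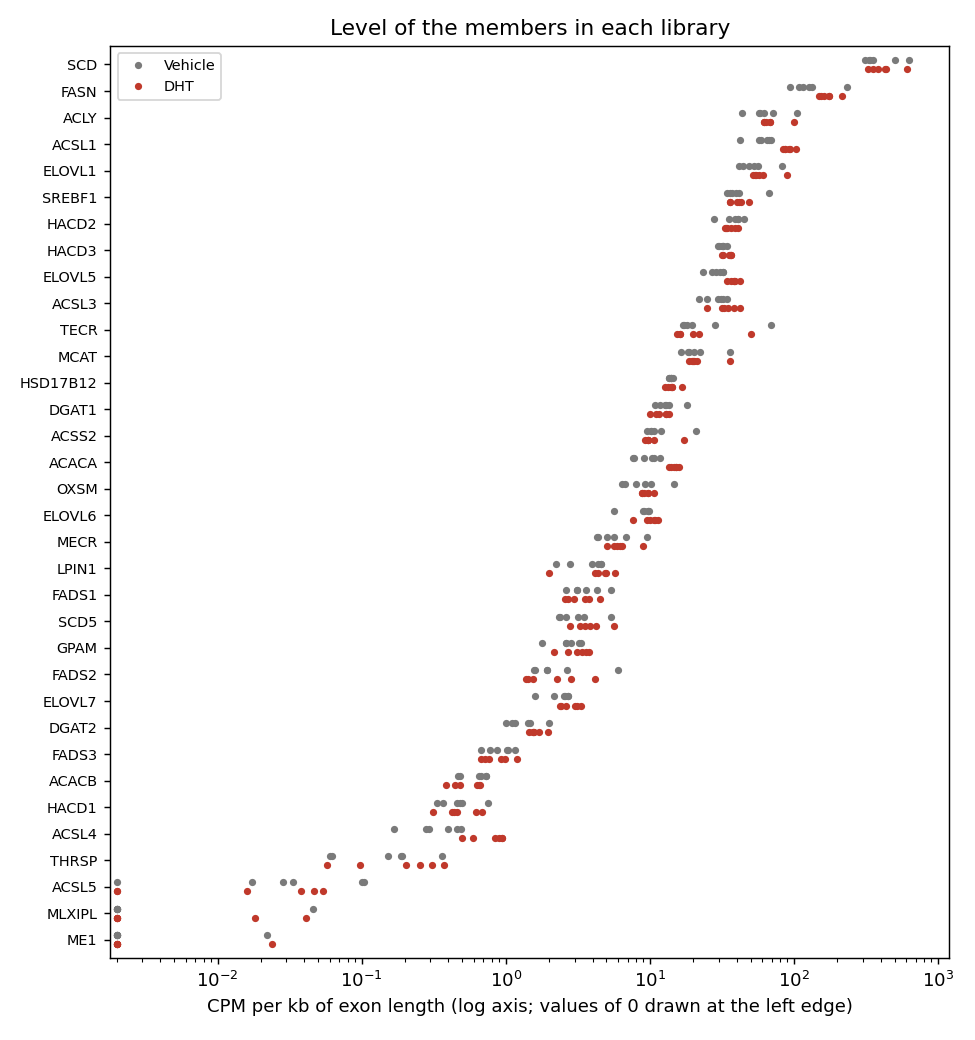
Level of the 34 members in each library as CPM per kilobase of exon length (x axis, log scale), vehicle in grey and DHT in red, with values of 0 drawn at the left edge. SCD and FASN lie at the top, with vehicle means of 412 and 135, and ACSL4 lies low, at 0.347 in vehicle and 0.787 in DHT libraries.

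The acyl-CoA ligases among the members held 2 raised among 3 tested, and all 3 had a positive log2 fold change, as did 41.8% of all genes tested. Of 6 further ligases tested outside the members, 0 passed. Of their log2 fold changes, 2 were positive and 4 negative (median -0.15). ACSL1 (ENSG00000151726, chromosome 4, 184755595 to 184826818), which activates long-chain fatty acids, had lowest, median and highest levels of 268, 389 and 436 CPM in vehicle and 524, 561 and 651 CPM after DHT. Every DHT library was above every vehicle library. The mean went from 377 ± 61.1 to 572 ± 45.5 CPM (SD, n = 6), a log2 fold change of 0.60 (SE 0.13, 95% interval 0.32 to 0.88, edgeR adjusted p = 0.0227). It passed in 15 of 21 alternatives. It missed the threshold with no filter on low counts (adjusted p = 0.0717) and when vehicle replicate 3 (0.0620) or 4 (0.0600) or any of DHT replicates 1 (0.0638), 3 (0.0530) and 6 (0.0697) was left out, again as adjusted p. The authors' deposited table gives 0.63 (adjusted p = 0.0031 there).

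ACSL4 (ENSG00000068366, chromosome X, 109624244 to 109733403) prefers arachidonic acid and other polyunsaturated chains. It was at 1.09, 2.25 and 3.20 CPM in vehicle and 3.28, 5.71 and 6.18 CPM after DHT (lowest, median, highest), from 164 and 464 counts in all. The groups did not overlap, but the highest vehicle and the lowest DHT library were close. The mean went from 2.27 ± 0.803 to 5.15 ± 1.25 CPM (SD, n = 6), a log2 fold change of 1.22 (SE 0.26, 95% interval 0.67 to 1.76, edgeR adjusted p = 0.0191). This was the highest fold among the members, on a gene of low level. It passed in 18 of 21 alternatives and missed when vehicle replicate 3 (adjusted p = 0.0566) or either of DHT replicates 3 (0.0539) and 6 (0.0525) was left out. The authors' deposited table gives 1.08 (adjusted p = 0.0023 there).

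ACSL3, a ligase of the endoplasmic reticulum and lipid droplets, was at 158, 221 and 247 CPM in vehicle and 181, 244 and 307 CPM after DHT. The groups overlapped, and it did not pass (log2 fold change 0.24, SE 0.15, 95% interval -0.078 to 0.55, adjusted p = 0.635). ACSL5 had 13 counts over the vehicle and 10 over the DHT libraries and was not tested. Per kilobase, ACSL1 made up 67.0 ± 4.06% of the 4 ligases in vehicle and 72.3 ± 2.89% in DHT libraries (SD, n = 6). ACSL3 went from 32.6 ± 4.08% to 27.0 ± 3.01%, and ACSL4 from 0.383 ± 0.116% to 0.627 ± 0.158%. All 3 shares overlapped between the groups. ACSL1 thus supplied most RNA of these 4 ligases in both groups, and ACSL4 stayed under 1% of it in every library.

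The triglyceride steps held 0 members past the threshold among 4 tested, and 0 at an unadjusted p under 0.05 in edgeR, with a median log2 fold change of 0.20. GPAM, which places the first acyl chain on glycerol phosphate, was at 17.4, 26.7 and 32.8 CPM in vehicle and 21.4, 31.9 and 37.0 CPM after DHT (log2 fold change 0.20, adjusted p = 0.800). LPIN1, which removes the phosphate from phosphatidic acid, had a log2 fold change of 0.20 (SE 0.24). DGAT2, one of the enzymes adding the last chain, was at 7.95, 10.2 and 15.8 CPM in vehicle and 11.4, 12.3 and 15.5 CPM after DHT (0.25, adjusted p = 0.677). DGAT1, the other, was at 44.7, 52.9 and 74.6 CPM in vehicle and 41.7, 50.6 and 55.7 CPM after DHT (-0.15, SE 0.13, 95% interval -0.43 to 0.13, adjusted p = 0.800). The groups overlapped for each of these genes.

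Of the control genes, SREBF1 encodes the transcription factor SREBP-1, which switches on most enzymes of the pathway. It was at 285, 316 and 550 CPM in vehicle and 296, 337 and 403 CPM after DHT. The groups overlapped, vehicle replicate 2 being the highest library, and SREBF1 did not pass (log2 fold change -0.055, SE 0.16, 95% interval -0.41 to 0.30, adjusted p = 0.960). MLXIPL, the carbohydrate-responsive factor ChREBP, had 3 counts over each group, and THRSP, a lipogenic regulator, had 13 over the vehicle and 22 over the DHT libraries. Neither was tested.

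Exons of ACACA, ACSL1, ELOVL5 and FASN shared no base with another annotated gene. ACSL4 shared 78 bases with KCNE5, which had 1 count over all libraries. Other members overlapped well-counted genes on the opposite strand and are less certain for that reason: SREBF1 shared 556 bases with RAI1, TECR 192 with DNAJB1 and DGAT1 137 with HSF1. ACSL5 shared 144 bases with ZDHHC6, which had 8124 counts, and THRSP 55 with NDUFC2, which had 12657. On its own strand, FADS2 shared 49 bases with FEN1, which had 19174 counts.

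The replicate 2 libraries deviated from the rest in a like way in both groups. Of the 30 members tested, 15 were highest in vehicle replicate 2 and 15 in DHT replicate 2, of which 13 were highest in both, and 5 were lowest in both. TECR lay 1.94 and 1.63 above the median of the other 5 libraries on the log2 scale (vehicle, DHT), FADS2 1.62 and 1.43, and FASN 1.00 and 0.42. LPIN1 lay at -0.97 and -1.28. Across the 30 genes, which are not independent replicates, the deviations of the 2 libraries had a Spearman rho of 0.93 (0.89 over 14559 genes). The GC percent of the gene, from the authors' deposited table, had a rho of 0.63 with the deviation in vehicle replicate 2 and 0.57 in DHT replicate 2 (0.56 and 0.39 over all those genes). GC percent had a rho of -0.40 with the members' log2 fold changes (-0.10 over all), and its part in the FASN result was not tested.

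**Figure D4:**
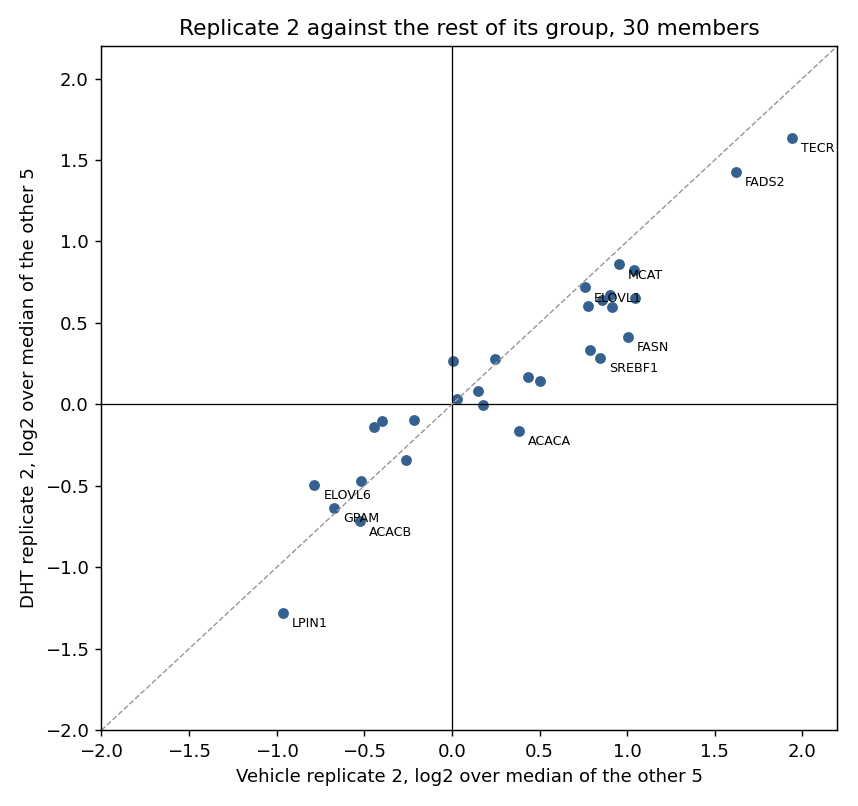
Deviation of each of the 30 members tested in replicate 2 from the median of the other 5 libraries of its group (log2), vehicle on the x axis and DHT on the y axis, with a dashed line where both are equal. Points follow the line from LPIN1 (-0.97, -1.28) to TECR (1.94, 1.63), while FASN lies to the right of it (1.00, 0.42).

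The rest of the pathway was followed in 112 further genes of citrate and NADPH supply, carboxylase control, SREBP and LXR control, mitochondrial synthesis, other ligases, acylglycerol steps, lipid droplets and fatty acid binding. Of 80 tested, 2 rose, 2 fell and 76 did not pass, where 1.96% of all genes rose and 0.88% fell. With so few calls, near these shares, the counts are no result about the list, and the called genes are described singly. The median log2 fold change was -0.064. The genes that rose encode subunits of AMP-activated protein kinase, which phosphorylates and inhibits acetyl-CoA carboxylase. PRKAB2, a regulatory beta subunit, was at 15.3, 23.5 and 27.3 CPM in vehicle and 26.6, 39.9 and 47.1 CPM after DHT, with a narrow overlap (0.83 on the log2 scale, SE 0.17, edgeR adjusted p = 0.0159). PRKAA2, a catalytic alpha subunit, was at 18.1, 24.9 and 33.8 CPM in vehicle and 35.1, 42.1 and 51.3 CPM after DHT (0.76, SE 0.16, adjusted p = 0.0220), with no overlap. PRKAA2 passed in 16 of 21 alternatives, with a highest adjusted p of 0.0629, and PRKAB2 in all 21. The other subunit genes on the list did not pass. PRKAA1, PRKAB1, PRKAG1 and PRKAG2 had log2 fold changes of -0.23, 0.064, -0.11 and 0.20, so the rise was not shared by all subunits.

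The lowered genes act on SREBP proteins. INSIG2, which keeps SREBP precursors in the endoplasmic reticulum, was at 114, 163 and 183 CPM in vehicle and 84.2, 101 and 113 CPM after DHT (-0.68 on the log2 scale, SE 0.13, edgeR adjusted p = 0.0103), and every DHT library lay below every vehicle library. FBXW7, the substrate receptor of a ubiquitin ligase that removes nuclear SREBP among other proteins, was at 94.2, 173 and 200 CPM in vehicle and 66.3, 94.0 and 106 CPM after DHT (-0.87, SE 0.17, adjusted p = 0.0142), with overlap. Both passed in all 21 alternatives. The other 11 genes of SREBP and LXR control did not pass with all libraries. INSIG1 was among them (0.18, SE 0.14, edgeR adjusted p = 0.748). Without both replicate 2 libraries MID1IP1, which promotes polymerisation of acetyl-CoA carboxylase, also rose (0.57, adjusted p = 0.00402) and NR1H3, the nuclear receptor LXR alpha, also fell (-0.42, adjusted p = 0.0269). None of the 14 genes of citrate and cofactor supply, the 6 other ligases or the 9 lipid droplet and lipolysis genes tested passed in edgeR with all libraries. At an unadjusted p under 0.05, 6 of the 80 were higher and 5 lower, about the shares over all genes (6.59% and 5.41%). The number raised among the 80 was 1 when vehicle replicate 6 or any of DHT replicates 1, 3, 4 and 6 was left out. Without each of these DHT libraries fewer genes were called over the whole table as well.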

How the data were processed

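RNA of 12 MDA-MB-453 libraries was compared, 6 per group. The authors deposited a gene table of estimated counts. Per the submitters' processing notes, GRCh38, STAR and featureCounts were used, with versions not given in the sources used here. Between 39.58% and 46.7% of nonzero values were not whole (tolerance 0.005), so they were rounded, although whole counts had been planned for. A record broken over 3 lines was left out. The authors' deposited table gives log2 fold changes and p-values (14559 genes) and states no model. The labels name both poly-A and total RNA, so the RNA class was not settled.

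In R 4.3.3, edgeR 4.0.16 was used for filtering (filterByExpr), TMM scaling and the quasi-likelihood test of group, without covariates, and p-values were adjusted over all genes tested (Benjamini-Hochberg, adjusted p under 0.05). Alternatives included DESeq2 1.42.0 and limma-voom 3.58.1, 21 in all. The script was tested on simulated data. CPM per kilobase used the deposited exon length. Library totals ran from 4345939 to 25678380, which sets precision. Per the labels, replicates were independent and came from consecutive passages.

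The members and lists were chosen with earlier results of these data known. Levels over libraries are given for members past the threshold, the 2 smallest p-values per step and 8 key genes; further pathway genes are named where they passed. MID1IP1 and NR1H3 were named after their values were seen. A marker result is not reported here.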

Additional observations from a re-analysis of the deposited data

Results flagged for a closer look

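In groups of 6 libraries, a value was listed where the gap to its nearest neighbour took more of the group's range than Dixon's 95% critical value allows, which chance alone gives in about 1 of 20 groups. Of 60 groups (30 members in vehicle and in DHT libraries), 14 met it, and all 14 were replicate 2. In vehicle replicate 2 the high values were ACSS2 at 110 CPM, FASN at 2166, MCAT at 86.2, ELOVL1 at 208, TECR at 410, FADS2 at 63.0 and SREBF1 at 550 CPM, and ELOVL6 was low at 41.1 CPM. In DHT replicate 2 ACLY was high at 523 CPM, ACSS2 at 90.1, MCAT at 86.0, MECR at 37.4, ELOVL1 at 225 and TECR at 297 CPM. The group medians beside these values were 54.8 CPM for ACSS2 in vehicle, 1135 for FASN, 111 for TECR and 20.5 for FADS2. ACACA, ACSL1, ACSL4 and ELOVL5 had no such library in either group. Their lowest vehicle library was in each case vehicle replicate 5 (98.8, 268, 1.09 and 89.5 CPM), which lay at the far vehicle end of component 2. It was also the lowest vehicle library for ACLY, ELOVL7, HACD2, HACD3, FADS1 and FADS3, which did not pass. ACACA, ACSL1 and ACSL4 still passed with that library left out.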

How the results depend on the processing

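ACACA kept its call in all 21 alternatives. Genes called over the whole table numbered 464, against 778 in DESeq2, 920 without both replicate 2 libraries, 1286 with the replicate number as a block and 278 to 619 with 1 library left out (306 without vehicle replicate 3 and 278, 282, 301 and 280 without DHT replicates 1, 3, 4 and 6). Members raised numbered 3, against 5 without both replicate 2 libraries and 1 to 5 with 1 library left out, and 0 were lowered in any alternative. With 1 library left out, further pathway genes raised numbered 1 to 3. Deviations of same-numbered libraries had positive correlations in 5 of 6 numbers (0.51, 0.87, 0.44, 0.26 and 0.46) but not for replicate 5 (-0.24). Replicate 2 alone matched its own number best in both directions. Deviations were taken from group means that include replicate 2, which can itself move the correlations of the other numbers. These values therefore cannot settle whether the numbers pair the libraries, and the main fit used no pairing. With the replicate block, 4 members were raised (ELOVL5 joined, adjusted p = 0.0193), as were 5 further pathway genes, with 5 lowered, where 4.67% of all genes rose and 3.19% fell. FASN did not pass in that edgeR fit (log2 fold change 0.40, SE 0.11, adjusted p = 0.0556). The SE there was 0.13 for TECR and 0.10 for SCD.

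Members that did not pass changed sign in some alternatives, and the cause was not tested. HACD1 had log2 fold changes of 0.011 with no filter on low counts and 0.0021 with the replicate block. Without both replicate 2 libraries OXSM was at -0.0053, HSD17B12 at -0.021 and SREBF1 at 0.063. With 1 library left out the log2 fold change ran from -0.12 to 0.16 for HACD1, -0.15 to 0.23 for MCAT, -0.10 to 0.19 for SCD, -0.33 to 0.065 for ACSS2, -0.036 to 0.23 for OXSM, -0.66 to 0.22 for TECR, -0.48 to 0.22 for FADS2, -0.11 to 0.12 for SREBF1, -0.16 to 0.0051 for FADS3, -0.029 to 0.28 for ACLY, -0.024 to 0.29 for MECR and -0.025 to 0.062 for HSD17B12. Depth limits ACSL4, at 164 vehicle counts in all, and the 4 members not tested.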
